A study of Homo sapiens with 6 samples.

Results

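The SLC25 family was examined by RNA-seq in the human osteosarcoma line Saos-2 after 24 h in 0.20 µM AIL or in its solvent DMSO, with 3 samples per treatment. AIL is the quassinoid ailanthone, made by the tree of heaven, and the series asked which pathways it alters in these cells. Both groups shared the same line and serum-containing DMEM, and by the labels they differed in AIL alone. The labels give the samples as biological replicates without saying how the cultures were separated. The p-values therefore rest on the spread of these 6 samples within their groups, which the test described below draws toward that of genes of like level. Members were the rows whose symbol starts with SLC25A and whose mean over the 6 samples was at least 1 CPM (library-scaled reads, TMM-normalized by the authors). Of 44 symbols with this prefix among the 13439 genes of the table, 39 passed. One of these, SLC25A21-AS1, is an antisense RNA and not a carrier, which leaves 38 carrier genes of 43.

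The SLC25 genes encode the mitochondrial carriers, small proteins built of repeated segments that mostly sit in the inner mitochondrial membrane. They exchange nucleotides, phosphate, carboxylates, amino acids and cofactors between the cytosol and the matrix. Their substrates feed ATP synthesis, the tricarboxylic acid cycle, the malate-aspartate shuttle, one-carbon metabolism and haem synthesis. In dividing cells the ADP/ATP carriers and the phosphate carrier are usually among the abundant transcripts of the family.

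Under AIL, 6 of the 38 carrier genes rose, 12 fell and 20 did not pass the test. The test was limma on log2(CPM + 1) over all 11069 genes above this floor, with a Benjamini-Hochberg adjusted p under 0.05 counted as a call. The same test called 54.1% of all tested genes, 28.2% higher and 25.9% lower, so a call by itself was common. The changes were small. The median log2 difference (AIL minus DMSO) of the carriers was -0.03 with a range of -0.25 to 0.41, against a median of 0.01 over all tested genes. Differences of at least 0.3 on the log2 scale were called for 2 carriers, SLC25A11 and SLC25A38, and for 14.5% of all tested genes. Both were higher. The groups did not overlap for 7 carriers that were higher and 14 that were lower, where 60.1% of all tested genes did not overlap (30.9% higher and 29.2% lower). The 7 include SLC25A45, which passed the floor only through its AIL samples. Summed over the 38 carriers, the level was 2318.2, 2282.6 and 2284.2 CPM in the DMSO samples and 2245.7, 2179.3 and 2174.4 CPM in the AIL samples. This sum is weighted toward the genes with the highest values, SLC25A3 and SLC25A5 above all, and does not describe the typical carrier.

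**Figure D1:**
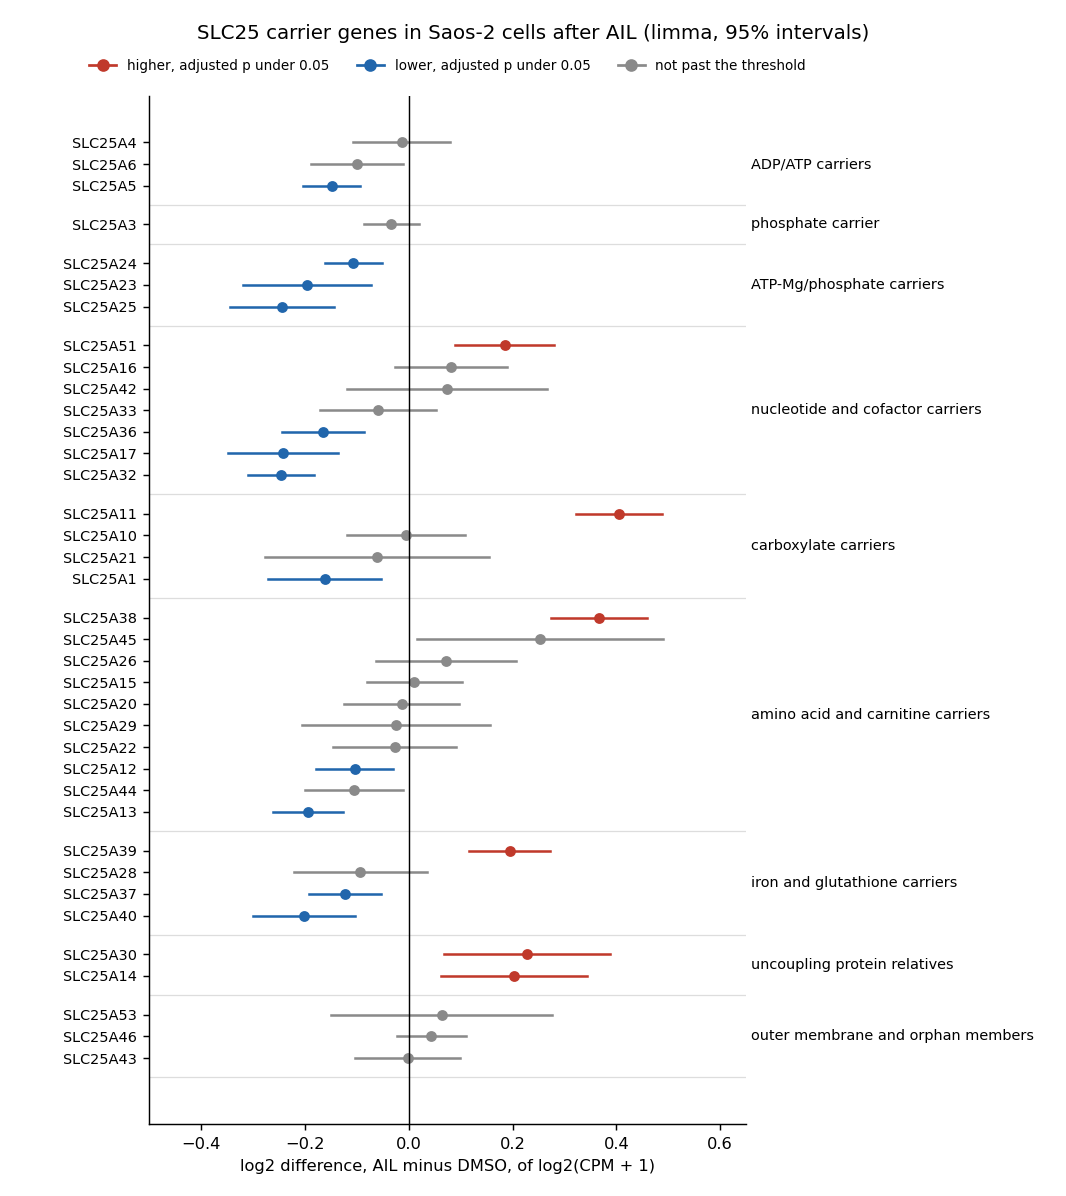
Log2 difference (AIL minus DMSO, on log2(CPM + 1)) of the carrier genes reported here with its 95% interval from limma, n = 3 per group, arranged by substrate group and coloured by call. SLC25A11 (0.41) and SLC25A38 (0.37) lie farthest above 0, and all 3 ATP-Mg/phosphate carriers lie below it.

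The promoters of both genes that rose most, and that of SLC25A17, 1 of those that fell most, are shown because they carry some of the short motifs that were searched across the family. Each runs from 250 bases before to 50 bases after the RefSeq start (build GRCh38.p14) on the strand of the gene: chr17:4939997-4940296 (minus strand) for SLC25A11, chr3:39383120-39383419 (plus strand) for SLC25A38 and chr22:40819297-40819596 (minus strand) for SLC25A17. Capitals mark the NRF1 core, which is GCGC, any 2 bases and GCGC again, and CCGGAAG, the core bound by ETS factors, on either strand.
SLC25A11: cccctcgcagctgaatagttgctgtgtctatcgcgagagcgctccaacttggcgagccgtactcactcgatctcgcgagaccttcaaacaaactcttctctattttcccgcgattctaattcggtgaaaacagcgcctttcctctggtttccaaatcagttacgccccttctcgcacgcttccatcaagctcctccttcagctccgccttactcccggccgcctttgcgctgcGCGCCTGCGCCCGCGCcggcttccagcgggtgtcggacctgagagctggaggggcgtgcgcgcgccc
SLC25A38: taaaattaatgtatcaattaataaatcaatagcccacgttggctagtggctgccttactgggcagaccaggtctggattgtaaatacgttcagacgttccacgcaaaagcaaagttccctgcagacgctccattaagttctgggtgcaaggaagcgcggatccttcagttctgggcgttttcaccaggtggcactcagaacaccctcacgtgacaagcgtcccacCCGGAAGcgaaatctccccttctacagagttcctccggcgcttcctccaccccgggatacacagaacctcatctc
SLC25A17: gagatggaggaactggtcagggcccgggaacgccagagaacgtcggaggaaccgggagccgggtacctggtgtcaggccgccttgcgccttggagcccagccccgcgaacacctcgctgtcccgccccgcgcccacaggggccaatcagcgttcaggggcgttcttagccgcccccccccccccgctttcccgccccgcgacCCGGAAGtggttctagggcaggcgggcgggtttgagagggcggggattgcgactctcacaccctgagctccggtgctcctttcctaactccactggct
Overlapping matches to the NRF1 core lie just before the start of SLC25A11, and 1 match to CCGGAAG lies in each of the other promoters shown.

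Promoters were found for 33 of the 38 carriers, among them 5 that rose and 10 that fell, and a gene counted if any of its listed starts held the motif. The NRF1 core was present for 7 of the 33, and for 9.98% of all 27305 RefSeq genes with a promoter. The ETS core CCGGAAG was present for 10 of 33 carriers and 12.2% of all genes, and the E-box CACGTG for 8 of 33 and 8.77%. TGACGTCA, the ATF/CRE site, was present for 3 (2.25% of all genes), TGATGNAA, an ATF4 element core, for 1 (4.46%) and AAGGTCA, bound by the ERR receptors, for 0 (4.80%). All genes include many that Saos-2 cells do not express, so these shares are not a like-for-like background. The NRF1 core lay before 2 of the 5 carriers that rose and 2 of the 10 that fell, and CCGGAAG before 2 of 5 and 3 of 10. A match is a description of the letters only.

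The label of the line was set against markers, and the osteoblast-like markers that had a row do not bear it out, apart from RUNX2. Of 10 osteoblast-like markers 4 had a row, and RUNX2, a factor of bone-forming cells, was at 4.36 to 5.04 CPM. SPP1, SPARC and BGLAP, which encode bone matrix proteins, were near 0, at most 0.28 CPM in any sample. The other markers were not analysed here. Of 6 markers of blood, epithelial and endothelial cells 2 had a row: CDH5 was at most 0.12 CPM, and CD68 was 0.73 to 0.79 CPM under DMSO and 2.48 to 3.26 CPM under AIL. CD68 passed the floor only through its AIL samples, and which cells its reads came from was not tested. The low values were whole multiples of the value of 1 read, which gave scaled depths of 32560000 to 38040000 reads per sample. Members rested on 24 to 56 reads per sample for SLC25A45, the lowest, and on 16148 to 18717 for SLC25A3, the highest.

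Divided by transcript length (the GENCODE 29 principal transcript), the phosphate carrier and an ADP/ATP carrier stood far above the rest. SLC25A3 was at 293.5 ± 2.76 CPM per kilobase under DMSO (SD, n = 3) and SLC25A5 at 275.7 ± 3.35. Next came SLC25A6 at 59.3 ± 0.208 and SLC25A39 at 55.2 ± 1.10 CPM per kilobase. From SLC25A32 (43.4 ± 0.716) the levels ran down to 0.312 ± 0.0178 CPM per kilobase for SLC25A53. These levels depend on the transcript taken: SLC25A4 stood at 5.76 ± 0.0468 with a principal transcript of 4440 bases, against 1274 bases for SLC25A5. The files do not say which transcripts the reads were assigned to.

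**Figure D2:**
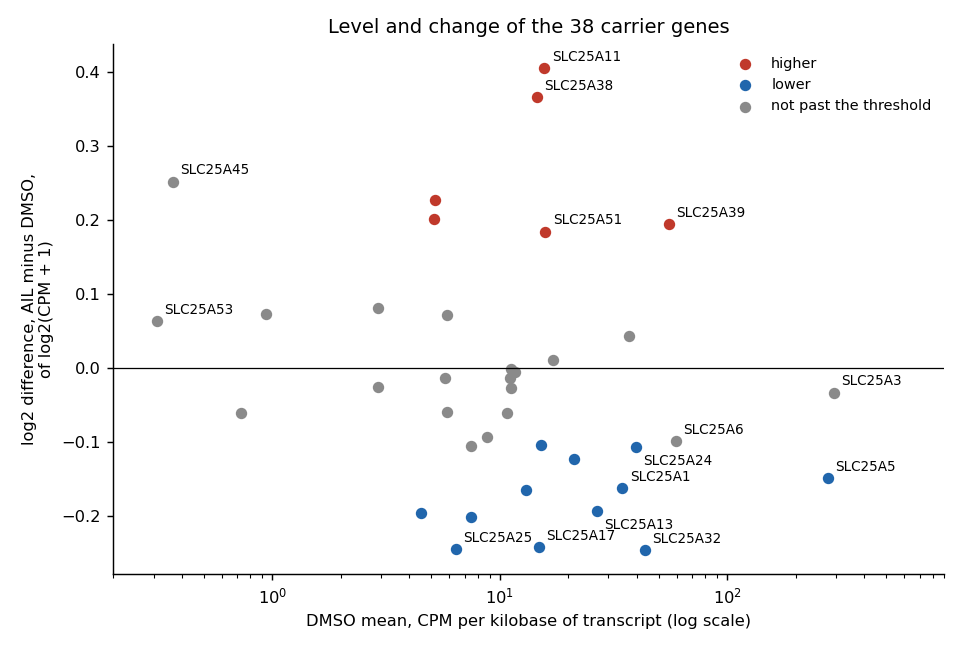
Mean DMSO level in CPM per kilobase of transcript (x axis, log scale) against the log2 difference AIL minus DMSO (y axis) for the 38 carriers, coloured by call. SLC25A3 and SLC25A5 lie at the far right, at 293.5 and 275.7 CPM per kilobase, and the 2 carriers with the highest differences, SLC25A11 and SLC25A38, lie in the middle of the range of levels, at 15.7 and 14.5.

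SLC25A11 encodes the oxoglutarate carrier, which swaps oxoglutarate for malate and is part of the malate-aspartate shuttle. Its samples were at 30.08, 30.27 and 28.94 CPM under DMSO and at 40.19, 39.62 and 39.43 CPM under AIL. The groups stood well apart and each was tight. The gene rose by 33.5%, a log2 difference of 0.41 (SE 0.0393, limma adjusted p = 1.66e-07), and the call held under all 14 alternative settings (adjusted p 2.46e-09 to 1.13e-04). In GENCODE 29, 9.1% of its exonic bases overlap exons of RNF167 on the opposite strand, and whether the counting used strand is not stated.

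SLC25A1, the citrate carrier, exports citrate for fatty acid and sterol synthesis and went the other way. It was at 60.10, 58.72 and 52.13 CPM under DMSO and at 53.33, 52.03 and 47.01 CPM under AIL. The groups overlapped, because DMSO replicate 3 was lower than AIL replicate 1. The log2 difference was -0.16 (SE 0.0518, limma adjusted p = 0.0136). Within each replicate number the AIL sample was the lower, and with the number as a block the adjusted p was 2.43e-04. Without the block, the call was lost without DMSO replicate 1 (adjusted p = 0.0813), without DMSO replicate 2 (0.0635) and without an intensity trend (0.0796). For the dicarboxylate carrier SLC25A10, which trades malate or succinate for phosphate, the 95% interval of the log2 difference ran from -0.12 to 0.11, although 41.2% of its 50-base words also occur in the overlapping gene AC139530.2. SLC25A21, the oxodicarboxylate carrier of lysine and tryptophan breakdown, was at 1.71 to 2.27 CPM over all samples with an interval of -0.28 to 0.15. The antisense RNA SLC25A21-AS1 overlaps it in part and was at 1.33 to 1.87 CPM (limma adjusted p = 0.367). In GENCODE 29, exons of SLC25A21-AS1 and PAX9 on the opposite strand cover 28.8% of the exonic bases of SLC25A21. Without strand, reads from the shared bases cannot be told apart.

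Among carriers of amino acids and carnitine, 1 of 10 rose and 2 fell (30% called, beside 54.1% of all tested genes). SLC25A38 imports glycine into mitochondria for the first step of haem synthesis. It was at 32.54, 31.57 and 29.47 CPM under DMSO and at 40.53, 39.45 and 41.47 CPM under AIL. All AIL samples lay above all DMSO samples, a rise of 29.8% (log2 difference 0.37, SE 0.0435, limma adjusted p = 1.89e-06) that was called under all 14 alternatives, with adjusted p from 1.36e-07 to 5.43e-04.

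SLC25A13 and SLC25A12 are the aspartate/glutamate carriers, the other arm of the malate-aspartate shuttle, and both fell. SLC25A13 was at 84.32, 82.39 and 83.38 CPM under DMSO and at 75.04, 70.72 and 72.54 CPM under AIL (log2 difference -0.19, SE 0.0319, limma adjusted p = 6.44e-05). SLC25A12 had means of 45.0 ± 0.344 CPM under DMSO and 41.8 ± 0.545 CPM under AIL (SD, n = 3), with limma adjusted p = 0.0192 for its log2 difference of -0.10. Neither gene had overlapping groups. The call for SLC25A12 was lost without DMSO replicate 1 (0.0575), DMSO replicate 3 (0.0543) or AIL replicate 2 (0.0568). The 3 shuttle carriers thus did not move together, with SLC25A11 higher and both aspartate/glutamate carriers lower.

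The remaining amino acid carriers did not pass. SLC25A44, a carrier of branched-chain amino acids, was at 25.93, 25.21 and 26.51 CPM under DMSO and at 23.97, 24.63 and 23.34 CPM under AIL (limma adjusted p = 0.0558, and 0.0478 with the replicate number as a block). It was also called without an intensity trend, with median-of-ratios scaling and with quantile normalization. The lowest limma adjusted p over the alternatives was 0.0231. Its groups did not overlap, and the 95% interval of the log2 difference was -0.20 to -0.01. The ornithine carrier SLC25A15 and the carnitine-acylcarnitine carrier SLC25A20 had intervals of -0.08 to 0.10 and -0.12 to 0.10, so changes beyond 0.12 in size lay outside them. The glutamate carrier SLC25A22, the S-adenosylmethionine carrier SLC25A26 and SLC25A29, a carrier of basic amino acids, had log2 differences of -0.03, 0.07 and -0.03. SLC25A45, listed with this group, sat at the floor with 0.83, 0.73 and 0.95 CPM under DMSO and 1.47, 1.05 and 1.06 CPM under AIL (adjusted p = 0.0671). All its DMSO samples were under 1 CPM, so it passed the floor only through its AIL samples. It was called with no filter on low values (limma adjusted p = 0.0289) and without an intensity trend (0.0326). These calls are not read as a result.

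**Figure D3:**
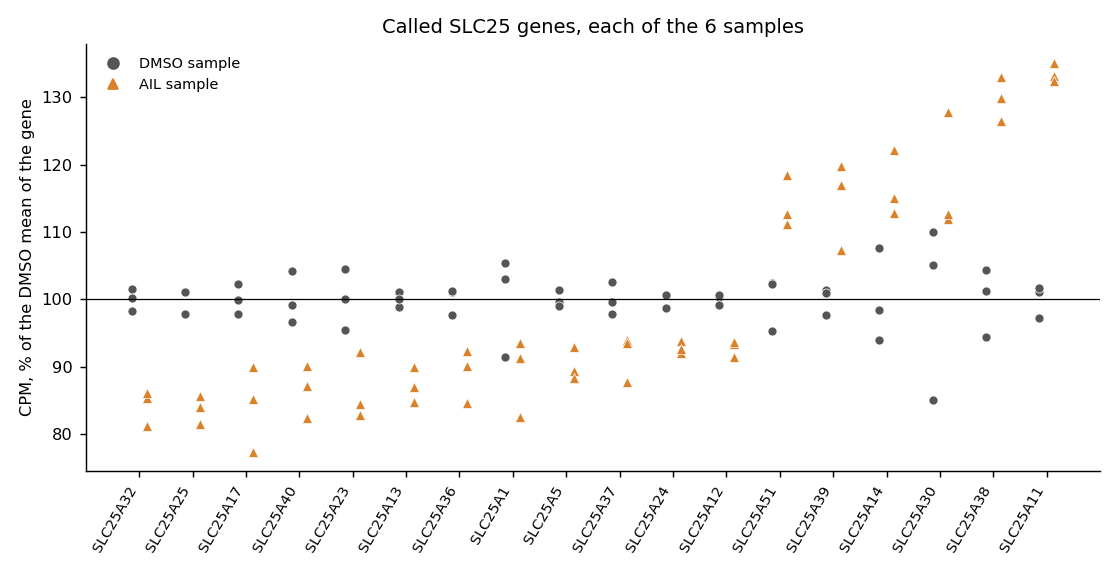
CPM of each of the 6 samples as a percentage of the mean DMSO level of the gene, for the 18 carriers past the threshold, ordered by log2 difference. Circles are DMSO and triangles AIL samples. Groups overlap for SLC25A1 alone, and by the mean of the AIL samples SLC25A11 and SLC25A38 stand highest.

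The ADP/ATP carriers bring ADP into the matrix and send ATP out. SLC25A5, the form typical of dividing cells, was at 356.01, 349.79 and 347.85 CPM under DMSO and at 326.53, 313.82 and 310.00 CPM under AIL. Every AIL sample was below every DMSO sample, and the gene fell by 9.80% (log2 difference -0.15, SE 0.0261, limma adjusted p = 1.22e-04). GENCODE 29 holds pseudogene copies and an antisense RNA of SLC25A5, and 15.4% of its 50-base words occur in other genes. SLC25A6 was at 122.14, 121.98 and 122.79 CPM under DMSO and at 120.24, 118.99 and 103.79 CPM under AIL. AIL replicate 3 was far below the other samples. The difference (log2 -0.10, 95% interval -0.19 to -0.01) had limma adjusted p = 0.0564. It passed with the replicate number as a block (adjusted p = 0.0221), without AIL replicate 1 (0.0145) or 2 (0.0336), with median-of-ratios scaling (0.0276) and with a minimum mean of 5 CPM (0.04999). Without AIL replicate 3 the log2 difference was -0.03 (adjusted p = 0.344).

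SLC25A4, the form typical of heart and muscle, was at 25.72, 25.34 and 25.67 CPM under DMSO and at 26.18, 25.32 and 24.51 CPM under AIL. These values overlapped throughout (log2 difference -0.01, 95% interval -0.11 to 0.08). Within samples, the ratio of SLC25A5 to SLC25A4 was 13.8, 13.8 and 13.6 under DMSO and 12.5, 12.4 and 12.6 under AIL. The ratio was lower in all AIL samples. A two-sided exact permutation test gave p = 0.1, the smallest that 3 against 3 samples allow, and 0.14 after Benjamini-Hochberg adjustment over the 7 pairs of related carriers compared. These pairs were chosen with the values known. For SLC25A5 against SLC25A6 the ratio was 2.91, 2.87 and 2.83 under DMSO and 2.72, 2.64 and 2.99 under AIL, and the groups overlapped (exact permutation p = 0.4, adjusted p = 0.467).

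SLC25A3 supplies the phosphate for ATP synthesis and had the highest level of the family. Its samples were at 497.54, 488.48 and 491.40 CPM under DMSO and at 492.06, 468.28 and 483.55 CPM under AIL. The groups overlapped (log2 difference -0.03, limma adjusted p = 0.278), and the 95% interval ran from -0.09 to 0.02.

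The ATP-Mg/phosphate carriers, which set the adenine nucleotide content of the matrix in response to calcium, all fell: 3 of 3 tested. Of all tested genes, 25.9% fell. SLC25A24 was at 167.34, 170.38 and 170.45 CPM under DMSO and at 159.01, 155.82 and 156.81 CPM under AIL (log2 difference -0.11, limma adjusted p = 0.00203). SLC25A25 was at 22.40, 22.40 and 21.68 CPM under DMSO and at 18.61, 18.97 and 18.05 CPM under AIL (log2 difference -0.25, limma adjusted p = 3.14e-04). For both genes the groups were apart. Genes on the opposite strand overlap 13.7% of the exonic bases of SLC25A24 and 16.2% of those of SLC25A25. SLC25A23 averaged 15.4 ± 0.695 CPM under DMSO and 13.3 ± 0.762 CPM under AIL (log2 difference -0.20, limma adjusted p = 0.00914, and 0.0514 without DMSO replicate 2). SLC25A41, which lacks the calcium-binding part, was at 0 to 0.08 CPM and was not tested.

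**Figure D4:**
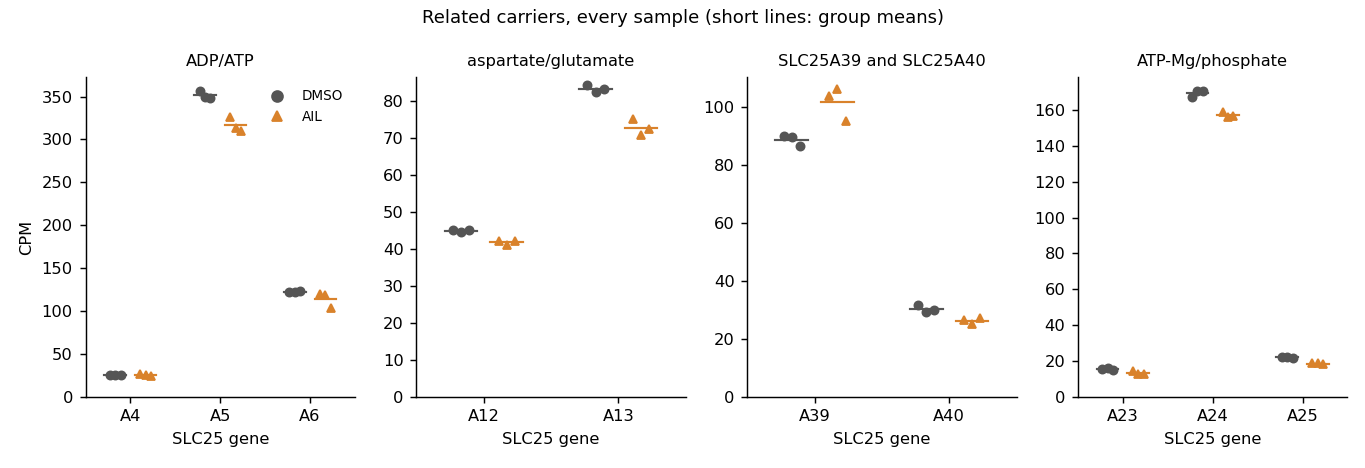
CPM of every sample for related carriers (circles DMSO, triangles AIL, short lines the group means, axes from 0). SLC25A5 and all 3 ATP-Mg/phosphate carriers are lower under AIL, SLC25A4 overlaps between groups, and SLC25A39 is higher where SLC25A40 is lower.

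Of the 8 carriers of other nucleotides and cofactors, 3 fell and 1 rose (50% called, beside 54.1% of all tested genes). SLC25A32 brings folate, and by other accounts FAD, into mitochondria. It was at 127.40, 123.29 and 125.77 CPM under DMSO and at 107.13, 101.88 and 107.97 CPM under AIL. The groups stood clearly apart, a fall of 15.8% (log2 difference -0.25, SE 0.0303, limma adjusted p = 2.83e-06). Yet 76.2% of its 50-base words occur in other annotated genes, mainly AC012213.5 and DCAF13, which both overlap it. How many of its reads belong to these genes cannot be told, so the value is uncertain.

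SLC25A17, a carrier of CoA, FAD and NAD in the peroxisome rather than the mitochondrion, was at 34.35, 33.54 and 32.85 CPM under DMSO and at 30.20, 25.99 and 28.63 CPM under AIL. It fell by 15.8% (log2 difference -0.24, limma adjusted p = 5.59e-04), with no overlap between groups. The pyrimidine nucleotide carrier SLC25A36 was at 61.27, 59.18 and 61.39 CPM under DMSO and at 51.33, 54.63 and 55.97 CPM under AIL (log2 difference -0.17, limma adjusted p = 0.00122). Its relative SLC25A33 overlapped between groups, with an interval of -0.17 to 0.05. The ratio of SLC25A36 to SLC25A33 was 2.68, 2.59 and 2.82 under DMSO and 2.53, 2.57 and 2.41 under AIL (exact permutation p = 0.1, adjusted p = 0.14).

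SLC25A51, which imports NAD, was the cofactor carrier that rose. It was at 27.47, 25.55 and 27.43 CPM under DMSO and at 31.78, 30.22 and 29.82 CPM under AIL (log2 difference 0.18, SE 0.0455, limma adjusted p = 0.00240). The groups were apart, although 17.6% of its 50-base words occur in other genes, SLC25A52 among them. SLC25A16 and the CoA carrier SLC25A42 had log2 differences of 0.08 and 0.07 and did not pass.

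Of the 4 carriers of iron and glutathione, 2 fell and 1 rose (75% called, beside 54.1% of all tested genes). SLC25A39, which imports glutathione, was at 89.94, 89.54 and 86.70 CPM under DMSO and at 103.76, 106.30 and 95.24 CPM under AIL. All AIL samples were higher, with replicate 3 the nearest to DMSO (log2 difference 0.19, SE 0.0371, limma adjusted p = 2.71e-04). Its close relative SLC25A40 was at 31.59, 29.33 and 30.08 CPM under DMSO and at 26.41, 24.99 and 27.32 CPM under AIL (log2 difference -0.20, SE 0.0467, limma adjusted p = 0.00144). The pair moved in opposite directions. Their ratio was 2.85, 3.05 and 2.88 under DMSO and 3.93, 4.25 and 3.49 under AIL, a log2 difference of 0.41 with exact permutation p = 0.1 (adjusted p = 0.14).

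The mitoferrins bring iron into the matrix. SLC25A37 was at 101.40, 104.43 and 99.51 CPM under DMSO and at 95.62, 95.24 and 89.36 CPM under AIL (log2 difference -0.12, limma adjusted p = 0.00451), with the groups apart. SLC25A28 averaged 12.7 ± 0.570 and 11.9 ± 0.653 CPM under DMSO and AIL and did not pass (limma adjusted p = 0.206). The ratio of both did not separate the groups (exact permutation p = 0.8).

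SLC25A14 and SLC25A30, relatives of the uncoupling proteins, both rose, where 28.2% of all tested genes rose. SLC25A14 was at 8.36, 7.99 and 9.15 CPM under DMSO and at 9.78, 9.59 and 10.39 CPM under AIL (log2 difference 0.20, limma adjusted p = 0.0165). SLC25A30 was at 19.97, 16.16 and 20.90 CPM under DMSO and at 21.29, 21.43 and 24.31 CPM under AIL (log2 difference 0.23, limma adjusted p = 0.0169). In neither gene did the groups overlap, but DMSO replicate 2 was the lowest sample of both. Without it the adjusted p was 0.0818 for SLC25A14 and 0.130 for SLC25A30, whose log2 difference dropped to 0.12. SLC25A14 also missed the threshold with quantile normalization (0.0580), and SLC25A30 without an intensity trend (0.0823). UCP2, an uncoupling protein proper, averaged 2.46 ± 0.104 CPM under DMSO and 2.86 ± 0.465 CPM under AIL and did not pass (limma adjusted p = 0.194).

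SLC25A46, which sits in the outer membrane and acts in mitochondrial fission and lipid exchange, was at 86.31, 87.21 and 89.80 CPM under DMSO and at 92.86, 88.16 and 90.48 CPM under AIL (limma adjusted p = 0.252). The orphan carriers SLC25A43 and SLC25A53 had 95% intervals of -0.10 to 0.10 and -0.15 to 0.28. None of these 3 passed. The 5 carriers under the floor were SLC25A35, SLC25A27, SLC25A34, SLC25A2 and SLC25A41. SLC25A35, with a mean of 0.943 CPM, lay just outside it, and SLC25A45, with 1.02 CPM, just inside.

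Other genes listed under mitochondrial transport were counted beside the carriers, and the counts were not tested against each other. The list is mixed: UCP2, MTCH1 and MTCH2 are relatives of the carriers under other symbols, and some genes, such as PPIF and IMMT, are not transporters. Of 35 tested, 13 rose and 3 fell (median log2 difference 0.05). That is 45.7% called, beside 54.1% of all tested genes, of which 28.2% were higher and 25.9% lower. With median-of-ratios scaling 7 fell, with quantile normalization 5 and with the replicate block 6, and 5 fell without DMSO replicate 1, AIL replicate 1 or AIL replicate 3. OXA1L, which inserts proteins into the inner membrane, rose from 44.5 ± 0.460 to 62.6 ± 2.77 CPM (limma adjusted p = 1.20e-08). SFXN3, a relative of the serine transporter SFXN1, rose from 31.8 ± 0.918 to 42.6 ± 0.892 CPM, and CPT1A, which makes acylcarnitines at the outer membrane, from 27.0 ± 1.21 to 36.0 ± 1.56 CPM (SD, n = 3). MTCH2 and MTCH1, outer membrane proteins with the SLC25 fold but another symbol, rose by 0.26 and 0.17 on the log2 scale, and PPIF, the cyclophilin of the permeability transition pore, by 0.22.

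The fallers among them were ABCB10, an inner membrane ABC transporter of erythroid haem synthesis, IMMT, which shapes the cristae, and NNT, the proton-driven transhydrogenase. ABCB10 fell from 53.4 ± 0.707 to 39.6 ± 2.74 CPM (log2 difference -0.42), and IMMT and NNT had differences of -0.22 and -0.12. NNT, UCP2, MPC1 and MPC2 fall outside the rule for named genes and were picked with their values known. The pyruvate carrier genes MPC1 and MPC2 did not pass (limma adjusted p = 0.931 and 0.773).

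Of 14 nuclear genes held as a reference for mitochondrial mass, 12 had a row. Of these 12, 7 rose and 0 fell (median 0.14), a share of 58.3% called beside 54.1% of all tested genes. Those that rose include C10orf2, with the largest log2 difference of the list (0.52), and HSPD1 and HSPA9, which encode matrix chaperones. CS (citrate synthase), TFAM and TOMM20 did not pass, with log2 differences of 0.00, 0.02 and 0.04 (limma adjusted p = 0.995, 0.508 and 0.353). The reference genes named here were picked with their values known. Of 13 mitochondrially encoded transcripts, 10 fell and 0 rose (median -0.20), where 25.9% of all tested genes fell and 28.2% rose. The sum of these transcripts was 4205 to 4374 CPM in the DMSO and 3600 to 3726 CPM in the AIL samples. Their part in the carrier values was not tested. In bulk RNA a lower share of cells with a transcript and less transcript per cell cannot be told apart.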

How the data were processed

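RNA of 6 Saos-2 cultures was sequenced after an Illumina TruSeq preparation, per the labels' protocols. The authors deposited 1 table of TMM-normalized values, read here as CPM, printed to 2 decimals. RSEM and edgeR 3.8.5 are named in the submitters' processing notes without a role. Not given in the sources used here are aligner, build, annotation and strand, so no gene coordinates were taken from the table. Scaled depth was read from the step of 1 read: 99.9 to 100% of values up to 1.5 CPM lay within 0.2 reads of a whole number, but rounding left too few of them exact for a count test.

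The test was limma (version 3.58.1, R 4.3.3), two-sided, with an intensity trend and no covariates. It ran on log2 CPM with a pseudocount of 1 over the 11069 genes whose mean reached 1 CPM. This scale understates the change of low genes. The test was tried on simulated data first. Members and lists were chosen with earlier results of these data known. All members could be named, but 1 carrier that did not pass the test is counted and not reported here. Values in every sample were meant for called members with an absolute log2 difference of at least 0.3, the ADP/ATP, phosphate and citrate carriers and the highest member of each group, and other members shown that way were added after their values were seen. Of the other transport genes, the 8 with the smallest adjusted p could be named.

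After subtraction of group means, samples correlated at 0.159, 0.133 and 0.129 between the treatments for replicates 1, 2 and 3, and at -0.179 to 0.0210 between unlike numbers. The labels do not say that a number marks a shared day or batch. The test as reported and the permutation tests therefore did not pair samples by number, and the block was an alternative only. With the number as a block, 58.4% of all tested genes were called, against 54.1% as reported. Under the block 14 carriers fell, against 12 as reported. Replicates of a group differed by 1.36 to 3.69 times the counting variance. The largest values, 2.90 and 3.69, were both pairs with AIL replicate 3, where AIL replicates 1 and 2 gave 1.63. Without AIL replicate 3, 55.9% of all tested genes were called, against 47.9 to 49.8% without any other sample. Transcript lengths, overlaps and shared 50-base words came from GENCODE 29, which may not be the annotation the authors used. Promoters came from RefSeq. Alternatives were other pseudocounts, filters, scalings, no intensity trend, a replicate block, and leaving out each sample.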

Additional observations from a re-analysis of the deposited data

How the results depend on the processing

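Across 14 alternative settings, 13 of the 18 called carriers kept their call under each setting, and no called carrier changed direction. The exceptions were SLC25A1, SLC25A12, SLC25A14, SLC25A23 and SLC25A30. SLC25A6, SLC25A44 and SLC25A45 gained a call under some settings, but SLC25A45 passed the floor only through its AIL samples. The number of carriers higher was 4 to 7 and lower 10 to 14. With the replicate number as a block all 18 calls remained, and SLC25A6 and SLC25A44 were added. Over all tested genes, leaving out 1 sample gave 2709 to 3270 higher and 2527 to 2924 lower. The other mitochondrial transport genes that fell, 3 in the fit as reported, numbered 7 with median-of-ratios scaling, 5 with quantile normalization, 6 with the replicate block, and 3 to 5 when 1 sample was left out (5 without DMSO replicate 1, AIL replicate 1 or AIL replicate 3). No setting moved the median log2 difference of all genes beyond -0.007 to 0.012. All settings began from TMM-normalized values, so this median could not show a shift shared by most genes. The carriers with the fewest reads, SLC25A21, SLC25A45 and SLC25A53, had 95% intervals of -0.28 to 0.15, 0.02 to 0.49 and -0.15 to 0.28.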
